A study of Mus musculus with 48 samples.

Results

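Epidermal stem cells (EpSCs) of aged female mice were compared between ZT12 and ZT8, a 4 h interval that ends at dusk. The 8 arrays were taken by their labels, aged cells with the time T12 or T8, out of 48 arrays in all, and no measured value entered the choice. One group held 4 arrays of aged cells at ZT12 and the other 4 arrays of aged cells at ZT8. All 8 mice were wild type C57B6/J females aged 102 to 116 weeks, each array stands for 1 mouse by the stated design, and no treatment is labelled, so the labels separate the groups only by time of day. The series also holds aged cells at ZT0, ZT4, ZT16 and ZT20 and cells of 8-week-old mice (young) of the same strain and sex at the same 6 times, again with 4 mice each. ZT, zeitgeber time, counts hours from lights on, and under the usual light schedule ZT12 is lights off. The light schedule and the isolation of the cells are not described in the labels.

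As background, the circadian clock is a feedback loop in nearly every cell: the activators CLOCK and BMAL1 (gene Arntl) bind E-boxes in the promoters of Period, Cryptochrome and other repressor genes, and the repressor proteins later shut the activators off. D-box factors such as DBP, TEF and HLF, themselves clock-driven, pass the rhythm on to further genes. In mouse epidermis the loop is known to give basal stem cells a daily order of DNA replication, metabolism and differentiation.

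Values are log2 signals of Affymetrix probe sets, and 12823 genes were bright enough to be tested. Median log2 signals of the 8 arrays averaged 4.85 ± 0.05 at ZT12 and 4.89 ± 0.02 at ZT8 (SD, n = 4 each). The 3' minus 5' signals of actin averaged -0.25 ± 0.05 at ZT12 and -0.19 ± 0.07 at ZT8. In all, 6 technical measures were compared, and their adjusted exact permutation p-values were 0.571 or more (2-sided, where 4 arrays against 4 cannot go below an unadjusted 0.0286).

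The label of epidermal stem cells was set against marker genes. The basal keratinocyte markers Krt5, Krt14, Krt15, Trp63, Itga6, Itgb4 and Col17a1 were all measured well above the limit for dim genes, a mean log2 signal of 3.96: their group means ran from 10.22 (Itgb4) to 12.73 (Krt5) at ZT12 and from 10.32 (Itgb4) to 12.72 (Krt5) at ZT8. Markers of differentiating keratinocytes were unequal. Krt10 was at 11.83 ± 0.17 at ZT12 and 11.69 ± 0.06 at ZT8, and Krt1 (11.83 and 11.72), Sbsn (11.30 and 11.32) and Krtdap (9.82 and 9.24) were also bright. Ivl (6.28 and 6.52) and Lor (6.03 and 6.57) were dimmer and lower at ZT12, and Flg was too dim to test. Of 7 markers of the hair follicle bulge, Cd34 and Lgr5 were too dim to test, while Sox9 (9.64 at ZT12 and 9.34 at ZT8), Nfatc1 (9.49 and 9.55), Tcf3 (8.23 and 8.27) and Tcf4 (7.31 and 7.44), factors that other skin cells can share, were above the limit. The list of the upper follicle and sebaceous gland held 6 markers, and Elovl3 was too dim to test. The 5 tested ones were bright, from 8.07 (Mgst1) to 11.17 (Plet1) at ZT12 and from 7.78 (Mgst1) to 11.66 (Plet1) at ZT8. Plet1 and Krt79 lay within the range of the basal markers at both times. Of 44 markers of 9 other cell types, 22 were too dim to test, among them the fibroblast gene Col3a1, the pan-leukocyte gene Ptprc and the Langerhans cell gene Cd207. Another 7 were above 5 at both times: Thy1 (9.40 at ZT12 and 9.84 at ZT8), Hba-a1 (7.26 and 7.09), H2-Ab1 (6.87 and 7.40), Pmel (6.00 and 6.16), Cd74 (5.46 and 5.67), Ckm (5.23 and 5.35) and Csf1r (5.21 and 5.26). The part of other cell types in the results was not tested. Over all 13 cell type lists, of which the adipocyte list had 0 tested genes, 0 genes passed the test, against 0.0858% of all genes. With so few markers and so small a share, this count cannot show whether the make-up of the cells changed.

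The 2 arrays with the lowest weights of the 8 are described here as standing apart. Aged ZT12 replicate 1 had the lowest array weight, 0.247, and a mean correlation of 0.972 with its own group, against 0.983 to 0.985 for the other 3 arrays of ZT12. Aged ZT8 replicate 4 had the next lowest weight, 0.579, and correlated with the ZT12 arrays (mean 0.988) as closely as with its own group (mean 0.988). The other ZT8 arrays had own-group means of 0.991 to 0.993. Closeness to the other time was not particular to this array. Every ZT12 array correlated more with the ZT8 arrays than with its own group, as in replicate 3 (0.991 against 0.984). The own-group mean of ZT8 replicate 4 was above that of every ZT12 array. The 6 other arrays of the 8 had weights of 0.633 to 3.24. Elsewhere in the series, arrays of lower weight than 0.579 were kept. Among them were young ZT0 replicate 2 (0.293), young ZT4 replicate 1 (0.326) and aged ZT0 replicate 3 (0.564). The weight of aged ZT8 replicate 4 was thus not unusual for the series. Results are also given without aged ZT12 replicate 1 and aged ZT8 replicate 4, a choice made after the data were seen. Leaving out a ZT8 array that lies near the ZT12 arrays tends by itself to widen the difference and raise the count. A gene that passed only without the 2 arrays is therefore no further support for a difference between the times.

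Few genes passed the test for this interval. With an adjusted p under 0.05 (limma, moderated test, Benjamini-Hochberg over all 12823 genes), 11 genes were called in aged cells at ZT12 against ZT8, which is 0.0858% of those tested: 4 were higher and 7 were lower. The unadjusted p was under 0.05 for 1218 genes (9.5%). The number called depends on the arrays and on the model: it was 143 (1.12%) without the 2 arrays that stood apart (9 of the 11 among them), 990 with array weights, and 0 when only the 8 arrays were fitted, where 1070 genes had an unadjusted p under 0.05. The 11 genes are accordingly described with the values of every array.

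Among the genes that rose, Cgrrf1 encodes a RING finger protein of the kind that attaches ubiquitin. It had log2 signals of 7.90, 8.14, 8.03 and 8.26 at ZT12, against 7.08, 7.03, 6.74 and 7.64 at ZT8. The groups did not overlap, with replicate 4 highest at ZT8. The rise was 1.95-fold (log2 0.96, SE 0.20, adjusted p = 0.0372 by limma). The 2 other probe sets of Cgrrf1 gave only 0.07 and 0.28 on the log2 scale, so the probe sets of this gene disagree in size.

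Mthfd1l encodes the mitochondrial enzyme that releases formate from the folate pathway, a supply of one-carbon units for purine and thymidylate synthesis. Its signals were 5.91, 6.13, 6.44 and 6.59 at ZT12, against 5.61, 5.25, 5.47 and 5.64 at ZT8, again with no overlap. It rose 1.71-fold (log2 0.78, SE 0.17, adjusted p = 0.0486, limma). Mthfd1l was the only gene called in both ages: in young cells it averaged 6.21 ± 0.23 at ZT12 and 5.14 ± 0.10 at ZT8 (log2 1.07, adjusted p = 0.00135, limma). Tlcd3a, a membrane protein of the TLC domain family, had 8.51, 8.69, 7.95 and 8.22 at ZT12, against 7.65, 7.65, 7.57 and 8.01 at ZT8. The groups of Tlcd3a overlapped, because ZT8 replicate 4 lay above ZT12 replicate 3, and the rise was 1.53-fold (log2 0.62, SE 0.13, adjusted p = 0.0486, limma).

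Ciart, the fourth gene that rose, is a clock repressor that binds BMAL1. It had 7.01, 7.02, 6.80 and 7.07 at ZT12, against 6.09, 6.06, 6.03 and 6.74 at ZT8. Replicate 4 of ZT8 was nearer to the ZT12 arrays than to its own group, yet the groups did not overlap. Ciart rose 1.68-fold (log2 0.74, SE 0.15, adjusted p = 0.0372, limma), and without the 2 arrays the log2 difference was 0.90 (adjusted p = 0.0063).

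The 7 genes that fell are of mixed function. The largest fall was that of Car9, a cell surface carbonic anhydrase and a textbook target of hypoxia-inducible factor. Car9 had 4.46, 4.77, 5.16 and 4.87 at ZT12, against 5.89, 5.44, 6.57 and 5.76 at ZT8. The groups did not overlap, and the signal at ZT8 was 2.14 times that at ZT12 (log2 -1.10, SE 0.24, adjusted p = 0.0486, limma). Pygm, a glycogen phosphorylase best known from muscle, had 4.59, 4.63, 4.78 and 4.69 at ZT12, against 5.61, 5.94, 5.55 and 4.80 at ZT8. In Pygm the ZT8 replicate 4 was level with the ZT12 arrays while the other 3 were clearly above them (log2 -0.81, SE 0.18, adjusted p = 0.0486, limma). Pygl, the liver form of the same enzyme, came close to the threshold (log2 -0.58, SE 0.13, adjusted p = 0.0506, limma).

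Lcat, which esterifies cholesterol in lipoproteins, had 5.60, 5.30, 5.86 and 5.59 at ZT12, against 6.54, 6.61, 6.36 and 6.03 at ZT8. Slc1a2, a glutamate transporter best known from astrocytes, had 4.62, 4.47, 4.84 and 4.79 at ZT12, against 5.11, 5.92, 5.39 and 5.47 at ZT8. Neither gene overlapped between the times. Lcat fell by 0.79 on the log2 scale (SE 0.16, adjusted p = 0.0372, limma), and Slc1a2 fell by 0.79 as well (SE 0.13), with the smallest adjusted p of the comparison, 0.00694. Thoc6, a subunit of the THO complex that couples transcription to mRNA export, had 7.29, 7.46, 7.74 and 7.49 at ZT12, against 8.30, 8.33, 8.42 and 7.75 at ZT8. Thoc6 fell by 0.71 (SE 0.15, adjusted p = 0.0486, limma), with ZT8 replicate 4 again next to the ZT12 arrays.

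Hpca, a neuronal calcium sensor, had 4.59, 4.57, 4.21 and 4.16 at ZT12, against 5.43, 5.24, 5.05 and 5.34 at ZT8. Cd68, a lysosomal membrane protein used as a macrophage marker, had 4.41, 4.56, 4.81 and 4.59 at ZT12, against 5.23, 5.40, 5.30 and 5.66 at ZT8. Both were lower at ZT12 without overlap: Hpca fell by 0.88 (SE 0.19, adjusted p = 0.0486) and Cd68 fell by 0.80 (SE 0.16, adjusted p = 0.0372), by limma. Beside Cd68, all 4 tested genes of the Langerhans and myeloid list, Cd74, H2-Ab1, Itgax and Csf1r, had negative differences that did not pass. Itgax (4.297 at ZT12 and 4.299 at ZT8) and Csf1r (5.21 and 5.26) were nearly level. With median centring or with cyclic loess, 3 of the 4 were negative and 1 was positive. The mean of these 4 ranged from 5.21 to 5.83 at ZT12 and from 5.30 to 6.16 at ZT8. Cd207, Ptprc and Lyz2, which define such cells, were too dim to test. In bulk RNA of this kind, fewer cells of a type and less RNA per cell cannot be told apart. A second, dimmer probe set of Hpca differed by -0.20 and one of Slc1a2 by -0.42. Of the 7 genes that fell, 5 belong to the lower 50% of genes by mean signal. Without the 2 arrays Car9 (adjusted p = 0.0506) and Cd68 (adjusted p = 0.0662) missed the threshold and the other 5 kept it.

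**Figure D1:**
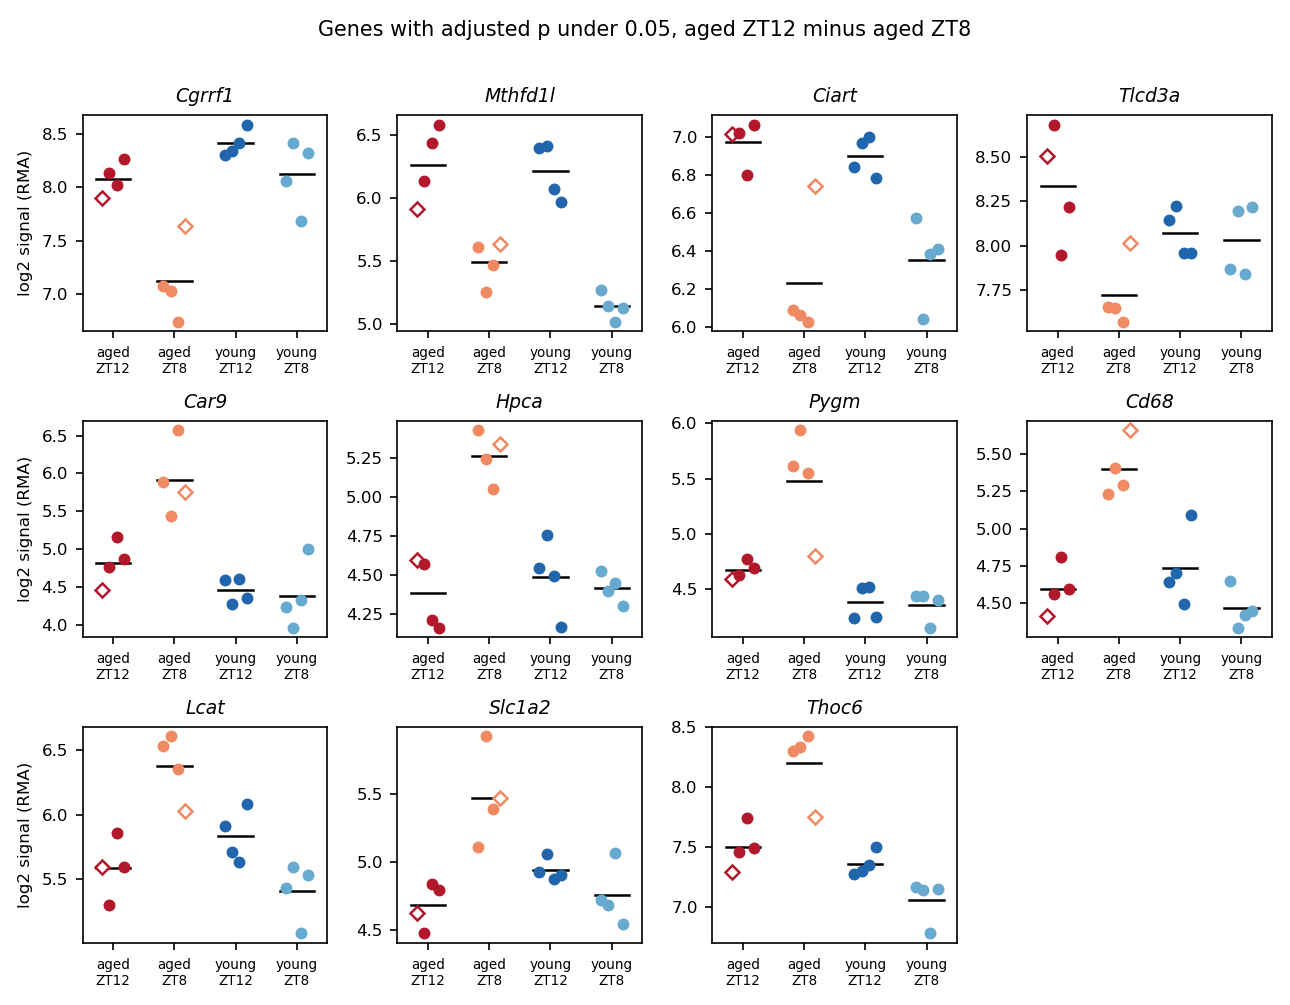
Log2 signal of each array (points) and group mean (bar) for the 11 genes with an adjusted p under 0.05 in aged cells, in aged ZT12, aged ZT8, young ZT12 and young ZT8, with open diamonds for aged ZT12 replicate 1 and aged ZT8 replicate 4. The 4 genes in the top row rose at ZT12 and the 7 below fell, and Tlcd3a is the only one whose aged groups overlap.

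Further genes came close without passing. Pdxk, the kinase that activates vitamin B6, had 8.98, 8.55, 8.72 and 8.57 at ZT12, against 8.16, 8.30, 7.95 and 8.24 at ZT8 (log2 0.54, SE 0.13, adjusted p = 0.0693, limma), with no overlap, and was called in young cells (log2 0.70, adjusted p = 0.0106). Stk38l, a kinase of the NDR family in the Hippo pathway, had 8.68, 9.20, 8.60 and 8.93 at ZT12, against 7.94, 7.69, 8.03 and 8.57 at ZT8 (log2 0.79, SE 0.20, adjusted p = 0.115, limma). The other probe sets of Stk38l gave 0.42 and 0.02. Stk38l passed once the 2 arrays were left out (log2 1.02, adjusted p = 0.0213). The Notch ligand Dll1 was lower without overlap, with 8.68, 8.75, 9.23 and 9.10 at ZT12 against 9.30, 9.26, 9.36 and 9.63 at ZT8 (log2 -0.45, SE 0.11, adjusted p = 0.0704, limma). Fam71a had a mean of 7.29 at ZT12 and 8.59 at ZT8 (log2 -1.29, SE 0.29, adjusted p = 0.0506, limma).

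The clock repressors form the group in which Ciart stands. Of 15 listed, 11 were tested: 1 rose, Ciart, and 0 fell, against 0.0312% of all genes called higher. At an unadjusted p under 0.05, 5 of the 11 were higher (Ciart, Per3, Per2, Cry1 and Per1) and 1 was lower (Btrc), against 4.27% of all genes higher and 5.23% lower. The aged groups did not overlap for 3 of the 11, all higher, against 1.55% of all genes. Nr1d1 was not analysed here. The median log2 difference of the 11 was 0.33, beside -0.01 for all genes tested. It was 0.10 without aged ZT12 replicate 1 and 0.12 without both arrays that stood apart.

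The promoters of the clock genes with the smallest p-values that the sequence table holds are shown because the motifs through which the loop acts can be read in them. Each runs from 250 bases before to 50 bases after the RefSeq start (GRCm38.p6), 5′ to 3′ on the strand of the gene. Capitals mark E-boxes (CACGTG), E′-boxes (CACGTT or its reverse complement AACGTG) and D-boxes (TTATGTAA, TTACATAA or TTACGTAA), searched on both strands. Ciart lies at chr3:95882179-95882478 on the minus strand, Per3 at chr4:151044616-151044915 on the minus strand, Cry1 at chr10:85185005-85185304 on the minus strand and Dbp at chr7:45704997-45705296 on the plus strand.
Ciart: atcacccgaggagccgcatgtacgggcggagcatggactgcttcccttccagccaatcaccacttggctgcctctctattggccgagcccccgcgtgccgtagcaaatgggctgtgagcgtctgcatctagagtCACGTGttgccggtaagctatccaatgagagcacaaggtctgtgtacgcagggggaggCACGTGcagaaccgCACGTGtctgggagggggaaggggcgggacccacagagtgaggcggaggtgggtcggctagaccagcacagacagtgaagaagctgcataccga
Per3: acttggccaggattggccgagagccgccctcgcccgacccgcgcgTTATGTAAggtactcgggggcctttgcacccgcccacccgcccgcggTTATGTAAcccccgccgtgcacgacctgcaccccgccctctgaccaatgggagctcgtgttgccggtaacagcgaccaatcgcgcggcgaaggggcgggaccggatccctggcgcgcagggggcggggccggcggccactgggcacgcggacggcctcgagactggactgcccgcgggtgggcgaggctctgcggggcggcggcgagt
Cry1: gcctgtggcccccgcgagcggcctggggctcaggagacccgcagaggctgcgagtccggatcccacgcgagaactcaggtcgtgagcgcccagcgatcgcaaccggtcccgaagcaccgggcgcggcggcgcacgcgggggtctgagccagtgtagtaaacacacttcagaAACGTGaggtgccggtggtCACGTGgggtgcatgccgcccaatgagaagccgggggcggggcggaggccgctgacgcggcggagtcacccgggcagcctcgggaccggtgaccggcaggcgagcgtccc
Dbp: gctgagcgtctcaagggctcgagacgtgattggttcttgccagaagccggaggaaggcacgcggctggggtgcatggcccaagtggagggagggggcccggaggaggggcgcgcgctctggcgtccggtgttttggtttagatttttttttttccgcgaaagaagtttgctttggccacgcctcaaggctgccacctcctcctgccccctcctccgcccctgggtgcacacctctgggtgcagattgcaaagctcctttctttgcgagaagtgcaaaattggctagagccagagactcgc
In this window Ciart holds 3 E-boxes that begin at -116, -58 and -44 from the start, Per3 holds 2 D-boxes at -205 and -158, and Cry1 holds an E-box at -60 and an E′-box at -79. The letters of none of the 3 motifs occur in the Dbp window. Among 32851 promoters of the same length, 7.15% hold an E-box, 4.68% an E′-box and 1.06% a D-box. A match describes the letters and not the binding of a factor.

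The Period genes encode the core repressor proteins that pair with cryptochromes. Per3 had 8.60, 9.82, 8.26 and 9.42 at ZT12, against 7.62, 7.53, 7.20 and 8.19 at ZT8, with no overlap. Its mean at ZT12 was 2.62 times that at ZT8 (log2 1.39, SE 0.35, adjusted p = 0.0957, limma), and without the 2 arrays Per3 passed (log2 1.72, adjusted p = 0.0272). All 5 probe sets of Per3 were higher at ZT12, by 0.20 to 1.39. Per2 had 7.95, 6.90, 7.66 and 7.35 at ZT12, against 6.85, 6.44, 6.71 and 6.71 at ZT8, again with no overlap (log2 0.79, SE 0.21, adjusted p = 0.146, limma). The second probe set of Per2 differed by 1.26. Per2 was among the genes called in young cells (log2 1.02, adjusted p = 0.0317). For Per1, the signals were 10.35, 9.97, 9.71 and 10.13 at ZT12, against 9.60, 9.59, 9.22 and 10.11 at ZT8, and ZT8 replicate 4 lay within the range of ZT12 (log2 0.41, SE 0.18, adjusted p = 0.476, limma).

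The cryptochromes are the partners of the Period proteins. Cry1 had 5.70, 6.74, 6.41 and 6.51 at ZT12, against 5.62, 5.18, 5.74 and 5.87 at ZT8. In Cry1, ZT12 replicate 1 lay among the ZT8 arrays and the other 3 were above all of them (log2 0.74, SE 0.25, adjusted p = 0.311, limma). Without the 2 arrays the difference of Cry1 was 1.04 (adjusted p = 0.0487). Cry2 had 9.05, 8.26, 7.91 and 8.23 at ZT12, against 7.99, 8.19, 7.87 and 8.07 at ZT8, overlapping (log2 0.33, SE 0.19, adjusted p = 0.576, limma). Btrc, a ubiquitin ligase subunit that directs Period proteins to degradation, had 7.54, 8.08, 7.95 and 7.97 at ZT12, against 8.41, 8.53, 8.18 and 8.03 at ZT8 (log2 -0.40, SE 0.13, adjusted p = 0.302, limma), with ZT12 replicate 2 above ZT8 replicate 4. Nr1d2, Bhlhe40, Csnk1d and Csnk1e had differences between -0.06 and -0.04, and each of these signs turned in at least 1 alternative.

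The D-box factors were all higher at ZT12, and 0 of the 4 passed. Dbp had 8.67, 8.25, 8.14 and 8.45 at ZT12, against 7.76, 7.88, 7.24 and 7.96 at ZT8, with no overlap (log2 0.67, SE 0.24, adjusted p = 0.347, limma). Hlf averaged 9.68 ± 0.24 at ZT12 and 9.25 ± 0.31 at ZT8, and Tef averaged 9.51 ± 0.28 at ZT12 and 9.17 ± 0.26 at ZT8 (SD, n = 4 each). In both genes the groups overlapped, with differences of 0.43 for Hlf and 0.33 for Tef. Nfil3, which represses through the same D-box, differed by 0.13.

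The clock activators had negative differences, and 0 of 5 passed. Arntl had 6.43, 7.35, 8.38 and 8.17 at ZT12, against 8.33, 8.10, 8.37 and 7.45 at ZT8. The spread within ZT12 was wider than the difference between the times (log2 -0.48, SE 0.35, adjusted p = 0.681, limma), and without the 2 arrays the difference was -0.30. Npas2, a relative of Clock that can replace it, differed by -0.12, Rora by -0.15 and Clock by -0.03. The second probe set of Npas2 differed by -0.61 and that of Arntl by -0.09, so the probe sets of both genes disagree in size. The signs of Rora, Clock and Arntl2 turned in at least 1 alternative. Of the young cells' clock genes, Per2 alone passed. For none of the 20 clock and D-box genes did the difference between the ages pass: for Cry1, 0.74 in aged against 0.05 in young cells, it was 0.68 (SE 0.35, adjusted p = 0.849, limma).

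**Figure D2:**
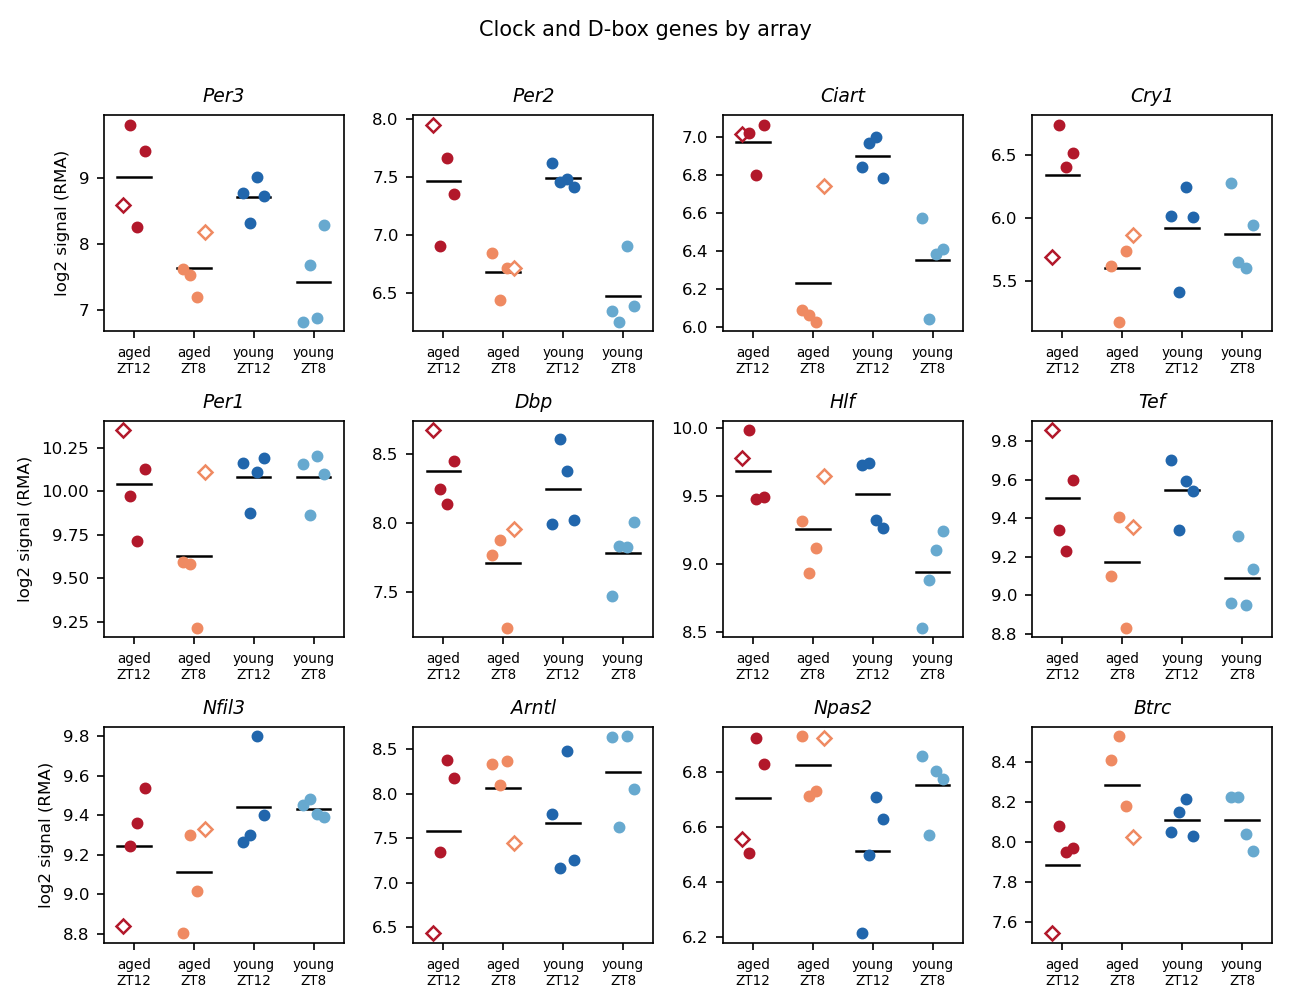
Log2 signal of each array (points) and group mean (bar) for 12 clock and D-box genes in aged ZT12, aged ZT8, young ZT12 and young ZT8, with open diamonds for aged ZT12 replicate 1 and aged ZT8 replicate 4. Ciart, Per3, Per2 and Dbp do not overlap between the aged times, while Arntl spreads from 6.43 to 8.38 within aged ZT12.

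Over the 6 times of the aged day, 7 of the 20 clock and D-box genes had their highest aged mean at ZT12: Per2, Per3, Cry2, Ciart, Dbp, Tef and Hlf. Of the other 13, 4 were highest at ZT0 (among them Arntl and Clock), 4 at ZT4 (among them Per1), 3 at ZT8, 1 at ZT16 (Rora) and 1 at ZT20 (Cry1). The aged means of Per3 were 5.03 at ZT0, 5.79 at ZT4, 7.63 at ZT8, 9.02 at ZT12, 7.99 at ZT16 and 7.04 at ZT20. Those of Dbp were 4.78, 5.94, 7.71, 8.38, 6.32 and 5.28 at the same times, so most of its daily climb came before ZT8. Arntl ran the other way, with 9.05, 7.74, 8.06, 7.58, 8.60 and 8.99. All 4 genes that rose had their highest aged mean at ZT12, which the choice of genes favours. In the 7 genes that fell, ZT8 and ZT20 gave the 2 highest aged means in 7 of 7. A high mean at ZT8 is favoured by the choice of these genes, and the share of this pattern over all genes was not computed. Thoc6, for example, had 7.33, 7.34, 8.20, 7.49, 7.43 and 8.11 in aged cells, from ZT0 to ZT20, and Pygm had 4.54, 4.42, 5.48, 4.67, 4.48 and 5.18. In young cells Thoc6 had 7.33, 7.60, 7.05, 7.35, 7.34 and 7.26 at these times, with its lowest mean at ZT8.

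**Figure D3:**
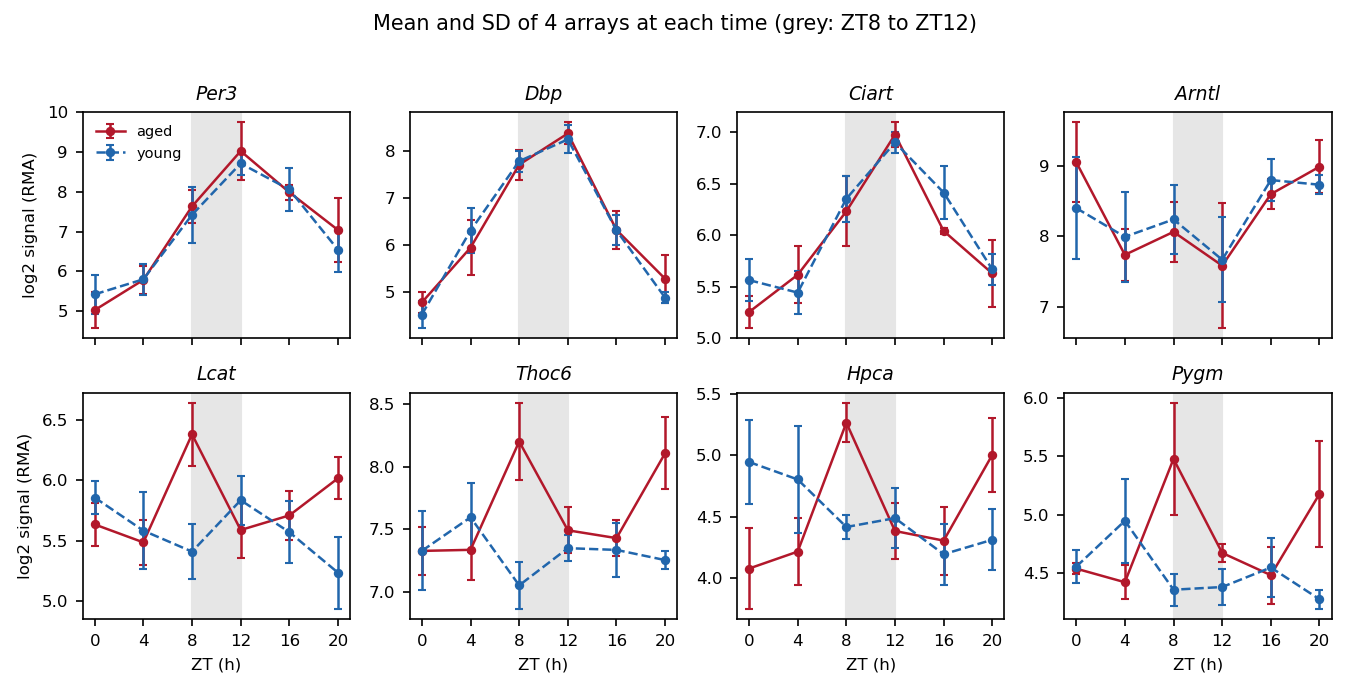
Mean log2 signal with SD (n = 4 arrays) at 6 times of day for 4 clock genes (top) and 4 of the genes that fell (bottom), in aged (solid) and young (dashed) cells, with ZT8 to ZT12 in grey. Per3, Dbp and Ciart peak at ZT12 in both ages, while the 4 lower genes have high aged means at ZT8 and ZT20.

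Glycolysis and hypoxia genes had lower signals at ZT12 as a group, although 0 of 19 tested members passed the test. All 19 differences were negative (18 when the arrays were centred on their medians), with a median of -0.22 beside -0.01 for all genes. At an unadjusted p under 0.05, 9 of the 19 were lower and 0 higher, against 5.23% and 4.27% of all genes. With no overlap between the groups, 9 of the 19 were lower, against 2.49% of all genes. The mean of the 19 genes was 9.65, 9.89, 9.88 and 9.72 in the ZT12 arrays, against 9.99, 10.04, 10.11 and 10.01 in the ZT8 arrays, so every ZT12 array was below every ZT8 array. Pfkp, a phosphofructokinase at the committed step of glycolysis, had 10.80, 10.61, 10.71 and 10.58 at ZT12, against 11.06, 11.16, 11.09 and 10.82 at ZT8 (log2 -0.36, SE 0.08, adjusted p = 0.067, limma). Pfkp passed once the 2 arrays were left out (log2 -0.47, adjusted p = 0.0133). The lactate exporter Slc16a3 had 7.29, 8.60, 8.41 and 7.93 at ZT12, against 8.69, 8.71, 8.95 and 8.94 at ZT8 (log2 -0.77, adjusted p = 0.223, limma). The mitophagy receptor Bnip3, a target of hypoxia-inducible factor, averaged 9.97 ± 0.12 at ZT12 and 10.37 ± 0.14 at ZT8.

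Car9, which fell, was not a member of this list. The unadjusted count of 9 was 4 without aged ZT12 replicate 4 (4.55% of all genes) and 5 without aged ZT8 replicate 3 (4.24%), and the median then was -0.18 and -0.17. Without the 2 arrays that stood apart, 6 were lower and 1 higher, against 6.75% and 8.7% of all genes, with a median of -0.23. In young cells the same 19 genes had a median of -0.01, with 3 higher and 2 lower at an unadjusted p under 0.05, against 5.18% and 2.07% of all genes. The difference between the ages had an unadjusted p under 0.05 for 6 of the 19, against 6.07% of all genes, and passed for 0.

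Genes of G2 phase and mitosis were also lower at ZT12, and 0 of 40 passed. Of the 40 differences 36 were negative, with a median of -0.34. At an unadjusted p under 0.05 there were 12 lower and 0 higher of the 40 (5.23% of all genes were lower), and 15 of the 40 were lower without overlap (2.49% of all genes). The mean of the 40 genes was 6.32, 6.49, 6.53 and 6.27 in the ZT12 arrays, against 6.62, 6.91, 6.73 and 6.67 in the ZT8 arrays, with no overlap. Cenpf, a kinetochore protein of late G2, had 6.83, 6.49, 6.83 and 6.62 at ZT12, against 7.73, 7.96, 7.83 and 7.41 at ZT8 (log2 -1.04, SE 0.30, adjusted p = 0.193, limma). Kif23, a kinesin of cytokinesis, had 4.43, 4.56, 4.74 and 4.62 at ZT12, against 5.28, 5.72, 4.95 and 4.81 at ZT8 (log2 -0.60, SE 0.20, adjusted p = 0.297, limma). Ccnb2, a cyclin of mitotic entry, averaged 5.44 ± 0.42 at ZT12 and 6.17 ± 0.23 at ZT8.

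The proliferation marker Mki67 averaged 8.05 ± 0.21 at ZT12 and 8.49 ± 0.10 at ZT8, without overlap. Other members did not share this direction: Mad2l1, Prc1, Ttk and Pttg1 had differences of 0.03 to 0.25. The unadjusted count of 12 was 7 without aged ZT8 replicate 2 (3.95% of all genes), and it was 5 (against 6.75% of all genes) without the 2 arrays, while the median was -0.31 and -0.34. In young cells the median of the 40 was -0.00, although Cenpf was lower there too (log2 -0.91, unadjusted p = 0.00396). The difference between the ages had an unadjusted p under 0.05 for 3 of 40, a share close to the 6.07% of all genes.

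S phase and replication genes had the opposite sign. Of 48 tested, 39 had positive differences, with a median of 0.16, and 0 passed. The mean of the 48 genes was 7.46, 7.62, 7.49 and 7.42 in the ZT12 arrays, against 7.27, 7.42, 7.16 and 7.47 in the ZT8 arrays. These means overlapped, because ZT8 replicate 4 lay above ZT12 replicates 1 and 4. At an unadjusted p under 0.05, 8 of the 48 were higher and 0 lower (4.27% of all genes were higher), and 6 were higher without overlap (1.55% of all genes). Chaf1b, a subunit of the histone chaperone that assembles new chromatin, had 7.24, 7.36, 7.23 and 7.15 at ZT12, against 6.85, 6.82, 6.55 and 6.88 at ZT8 (log2 0.47, SE 0.14, adjusted p = 0.242, limma). Tyms, which makes thymidylate, had 8.66, 8.75, 8.63 and 8.42 at ZT12, against 8.04, 8.23, 7.84 and 8.41 at ZT8 (log2 0.49, adjusted p = 0.343, limma). E2f1, the transcription factor of S phase entry, averaged 7.30 ± 0.22 at ZT12 and 6.93 ± 0.10 at ZT8, and its second probe set differed by 0.09. The helicase genes Mcm2 to Mcm7 overlapped between the times, with differences of 0.15 to 0.24. The count of 8 was 5 without aged ZT12 replicate 2 (2.75% of all genes) and also 5 without aged ZT8 replicate 3 (2.71%), and it was 10 without both arrays that stood apart (against 8.7% of all genes).

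In young cells the same 48 genes had a median of 0.43, with 34 higher at an unadjusted p under 0.05, against 5.18% of all genes, and 22 higher without overlap, against 2.75% of all genes. Pole, the catalytic subunit of a replicative polymerase, was called there (log2 0.84, adjusted p = 0.00657) and differed by 0.20 in aged cells (adjusted p = 0.692). The difference between the ages for Pole was -0.64 (SE 0.21, adjusted p = 0.640) and did not pass, nor did that of any of the 48, of which 6 had an unadjusted p under 0.05 (6.07% over all genes).

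Oxidative phosphorylation genes were shifted little: 39 of 42 differences were positive, with a median of 0.11, and 0 passed. The mean of the 42 genes overlapped between the times, with ZT8 replicate 4 (10.313) above ZT12 replicates 3 (10.269) and 4 (10.235). At an unadjusted p under 0.05, 3 were higher, Ndufa4, Sdhc and Ndufb8, a share near the 4.27% of all genes. In each of these 3, ZT8 replicate 4 lay above the rest of its group, and without that array 8 of the 42 were higher, while the share of all genes was then 8.31%. Ndufa4 of complex I and IV had 9.54, 10.13, 10.05 and 10.06 at ZT12, against 9.30, 9.27, 9.24 and 9.93 at ZT8 (log2 0.51, adjusted p = 0.351, limma). With both arrays left out Ndufa4 differed by 0.81 and passed (adjusted p = 0.0358). The young median of the 42 was 0.10.

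Basement membrane and adhesion genes had a median of -0.16, with 16 of 18 negative and 0 passing, where 6694 of all 12823 genes were negative. At an unadjusted p under 0.05, 3 of the 18 were lower and 0 higher, against 5.23% and 4.27% of all genes. That count was 2 without aged ZT12 replicate 2 (4.49% of all genes). Without overlap, 1 of the 18 was lower, against 2.49% of all genes. Itgb1, the beta-1 integrin that anchors basal cells, had 10.08, 9.99, 10.66 and 10.28 at ZT12, against 10.71, 10.64, 10.68 and 10.67 at ZT8 (log2 -0.42, adjusted p = 0.322, limma). Only ZT12 replicate 3 reached the ZT8 range. Lamb3, a chain of laminin-332, averaged 10.81 ± 0.13 at ZT12 and 11.06 ± 0.13 at ZT8.

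In the growth factor feedback list, 0 of 18 passed and the largest differences were in Sprouty genes, inhibitors of receptor tyrosine kinase signalling. Spry2 had 9.38, 10.09, 8.69 and 9.44 at ZT12, against 7.80, 7.60, 8.05 and 9.43 at ZT8 (log2 1.18, SE 0.33, adjusted p = 0.173, limma). The second probe set of Spry2, also well above the limit for dim genes, differed by only 0.13. In Spry2, ZT8 replicate 4 stood with the ZT12 arrays, and without the 2 arrays the gene passed (log2 1.59, adjusted p = 0.0161). The glucocorticoid-induced gene Tsc22d3 had the same layout, with 9.66, 9.04, 8.10 and 9.14 at ZT12 against 7.31, 7.61, 6.92 and 9.50 at ZT8 (log2 1.15, adjusted p = 0.287, limma). It also passed with both arrays left out (log2 1.48, adjusted p = 0.0355). Of the other 18 tested genes of the glucocorticoid list, 0 had an unadjusted p under 0.05, and Fkbp5 averaged 7.88 ± 0.28 at ZT12 and 7.63 ± 1.04 at ZT8.

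The remaining pathway lists with more than 1 tested gene, among them DNA repair, p53 targets, heat shock chaperones, ribosome biogenesis, interferon-stimulated genes, Wnt and lipid synthesis, had medians between -0.13 and 0.12. In these lists the single gene called was Mthfd1l of the folate list. The interferon-stimulated genes depended most on the 2 arrays: the median of the 14 tested was -0.09 with all arrays and -0.31 without them, where Stat2, a transcription factor of the interferon response, was lower (log2 -0.95, adjusted p = 0.049, limma). Their young median was 0.17. The difference between the ages had an unadjusted p under 0.05 for 5 of the 14, against 6.07% of all genes, and passed for 0.

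**Figure D4:**
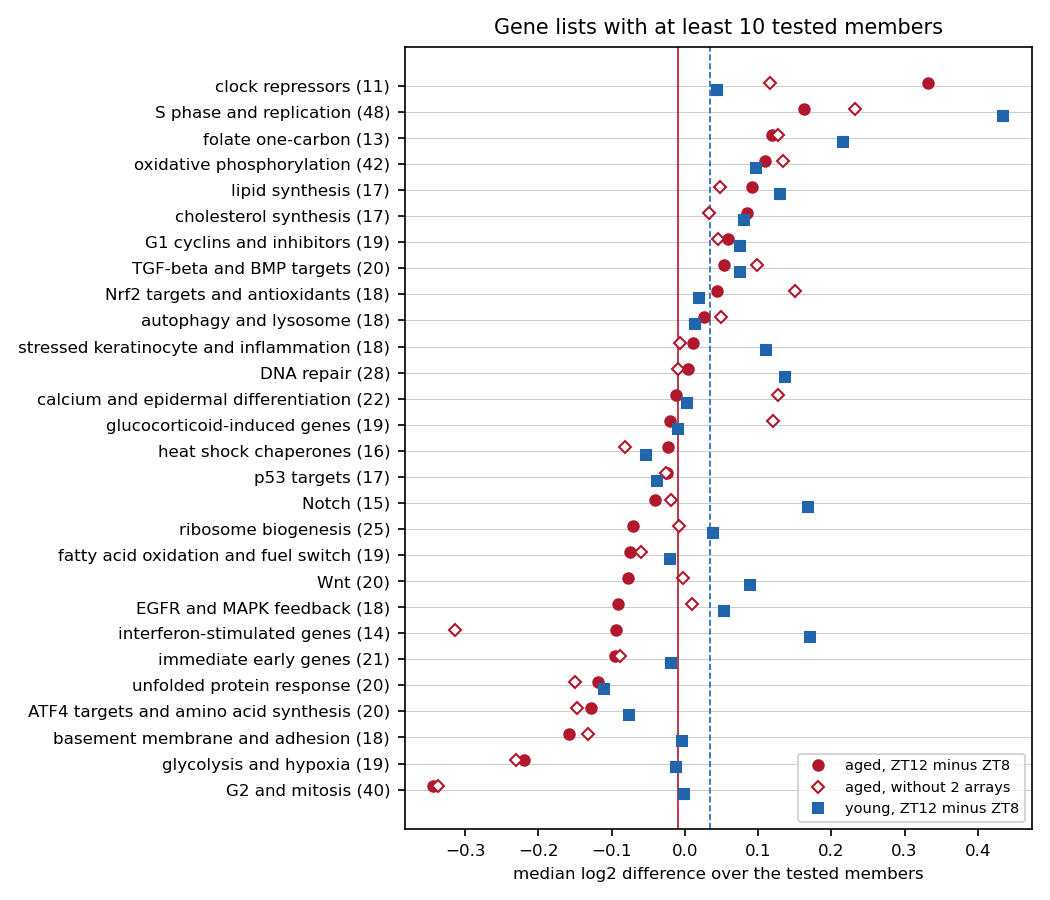
Median log2 difference, ZT12 minus ZT8, over the tested members of each pathway list with at least 10 of them (number in brackets), in aged cells (filled circles), aged cells without 2 arrays (open diamonds) and young cells (squares), with lines at the medians of all genes. G2 and mitosis (-0.34) and glycolysis and hypoxia (-0.22) lie lowest in aged cells, and S phase and replication is at 0.16 in aged and 0.43 in young cells.

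The same interval in young cells gave 7 called genes (0.0546%), all of them higher: Mthfd1l, Pole, Pdxk, Gsta4, Slc46a3, Ano1 and Per2. Of the 11 genes called in aged cells, 11 had a positive difference in young cells, from 0.02 for Pygm to 1.07 for Mthfd1l, so the 7 that fell in aged cells did not share their sign with young cells. The difference between the ages was tested in the same fit and passed for 3 genes (0.0234%, with 778 genes or 6.07% at an unadjusted p under 0.05, 1.77% with a positive and 4.3% with a negative difference). Lcat fell in aged cells and had 5.84 ± 0.20 at ZT12 and 5.41 ± 0.23 at ZT8 in young cells, a difference between the ages of -1.22 (SE 0.22, adjusted p = 0.0147, limma). Slc1a2 had 4.94 ± 0.08 at ZT12 and 4.75 ± 0.22 at ZT8 in young cells, a difference between the ages of -0.97 (SE 0.19, adjusted p = 0.0264, limma). Polg2, the accessory subunit of the mitochondrial DNA polymerase, had 7.05, 6.86, 6.58 and 6.35 at ZT12 against 7.49, 8.05, 7.67 and 7.08 at ZT8 in aged cells, and 7.72, 6.75, 7.15 and 7.04 at ZT12 against 6.32, 6.43, 6.31 and 6.52 at ZT8 in young cells. The groups of Polg2 did not overlap in either age, as for 4.04% of all genes in aged and 4.23% in young cells, and the difference between the ages of Polg2 was -1.64 (SE 0.29, adjusted p = 0.0147, limma).

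For Cd68 the difference between the ages was -1.07, and for Thoc6 aged cells differed by -0.71 and young cells by 0.30, with an adjusted p of 0.0879 for each gene. For Car9 it was -1.17 (adjusted p = 0.453), for Hpca -0.95 (0.441) and for Pygm -0.83 (0.540, all limma). The count of 3 was 0 without aged ZT8 replicate 2, 0 without young ZT12 replicate 1, 1 without young ZT12 replicate 4, and 8 without the 2 aged arrays that stood apart. Of the 3 genes, Lcat and Polg2 stayed among these 8, whereas Slc1a2 missed the threshold (adjusted p = 0.0521) and Thoc6 passed it (adjusted p = 0.0342, limma).

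Set among the 6 intervals of the aged day, the one from ZT8 to ZT12 had few called genes. There were 269 for ZT0 minus ZT20 (2.1%), 201 for ZT4 minus ZT0 (1.57%), 424 for ZT8 minus ZT4 (3.31%), 11 for ZT12 minus ZT8, 225 for ZT16 minus ZT12 (1.75%) and 4 for ZT20 minus ZT16 (0.0312%). Neighbouring intervals share arrays, so these counts are not independent, and they were not tested against each other. The median size of the log2 difference over all genes was 0.11 for ZT12 minus ZT8, against 0.13 for ZT8 minus ZT4 and 0.09 for ZT20 minus ZT16. Without the 2 arrays the counts were 414, 293, 719, 143, 506 and 14 in the same order.

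**Figure D5:**
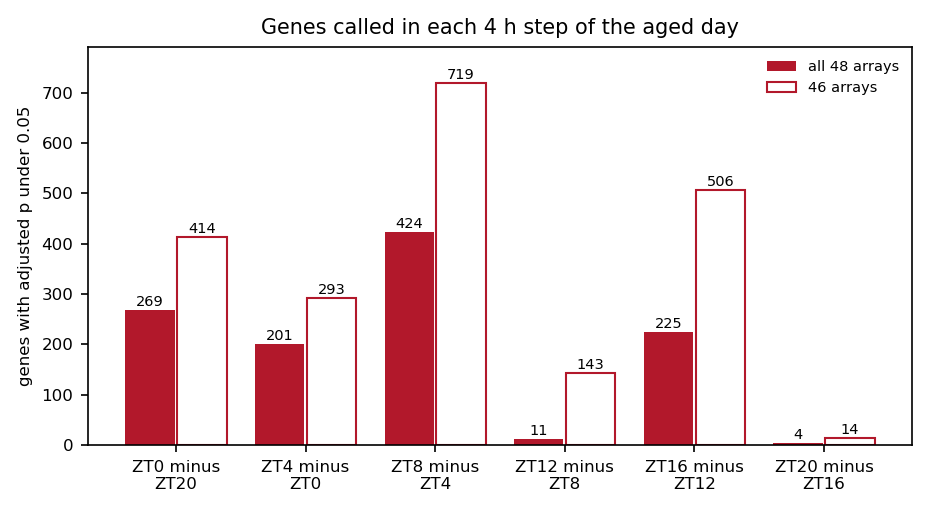
Number of genes with an adjusted p under 0.05 in each 4 h interval of the aged day, from all 48 arrays (filled) and from 46 arrays, without aged ZT12 replicate 1 and aged ZT8 replicate 4 (open). ZT12 minus ZT8 has 11 genes and 143 without the 2 arrays, between intervals with 424 and 225.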

How the data were processed

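RNA of EpSCs from epidermis was extracted with TRizol, amplified with the WTA2 kit from 25 ng in 17 cycles and labelled with biotin, per the labels' protocols. The probe set names are of the Affymetrix type. The deposited values are on a log2 scale, as their range shows, and the authors used RMA, per the submitters' processing notes. The version of RMA is not given in the sources used here, and neither is whether all arrays were normalized together. The values are not counts, and the precision rests on 4 arrays a group.

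Of 45141 probe sets, 28898 carry 1 gene symbol, 551 several and 15692 are not named in the table used. The brightest probe set of each of 17097 genes was kept, and the lowest 25% by mean (under a log2 of 3.96) were left out. The fit used limma 3.58.1 (R 4.3.3) over all 48 arrays, with a mean for each of 12 groups and 36 residual degrees of freedom. The adjusted p is Benjamini-Hochberg over 12823 genes. The same fit gave the young interval and the difference between the ages. The SDs measure the spread between the mice of a group. The SEs and p-values use a variance pooled over the 12 groups of all 48 arrays, young cells included. They therefore do not reflect the spread of the aged ZT12 and ZT8 mice alone. Fitted on the arrays of those groups alone, or on the 24 aged arrays, the aged comparison had 0 genes called. The code of the fit was run on simulated data with noise independent between genes and of equal spread in every array. The real arrays differ in weight, so that run cannot show how far the counts depend on single arrays. Promoters were matched by symbol for 16 of 20 clock and D-box genes.

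The members and the gene lists (45, with 633 tested genes) were chosen with earlier results of these data known. Named genes are the measured clock and D-box genes, the 10 largest rises and falls that passed (filled up by smallest p), up to 3 members of each list by smallest p, and the 5 smallest p of the difference between the ages. Gene models without a proper name were left out of the naming. Mki67, Mad2l1, Prc1, Ttk, Pttg1, the Mcm genes, Pole, Fkbp5 and the genes called in young cells alone were named after their values were seen. The alternatives were other filters, the mean of probe sets, median centring, cyclic loess, array weights, a trended robust variance, fits on fewer arrays, the replicate number as a block, a minimal fold and each array left out. Replicate numbers pair no mice by the labels, and the deviations of same-numbered arrays correlated by -0.17 to 0.12.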

Additional observations from a re-analysis of the deposited data

Results flagged for a closer look

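Among 204 groups of 4 arrays (102 genes at ZT12 and at ZT8 in aged cells), 16 held 1 array far from the other 3, as judged by its gap over the group's range. Chance flags about 1 in 20 groups, and the arrays are shared by all genes. Of the 16, 8 were aged ZT12 replicate 1 and 4 were aged ZT8 replicate 4.

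Aged ZT12 replicate 1 was high in Cdk6, a kinase of G1 (8.9563 against at most 8.6338 in the other 3 arrays), and in Oasl2 (5.2092). It was low in Ndufa4 (9.5435), in the chaperone Hspa5 (9.6916), in the ATF4 targets Trib3 (4.5641) and Chac1 (4.3367, against at least 6.351), and in the transcription factors Myc (9.6933) and Fosl1 (9.2449, against at least 10.9279).

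Aged ZT8 replicate 4 was high in Ciart (6.7409, against at most 6.0886), in Ndufa4 (9.9252) and in Tfeb, a regulator of lysosomal genes (6.0975), and low in Hspa5 (10.5167). Aged ZT8 replicate 2 was low in Fbxo46 (7.0624), Hyou1 (8.3868) and Fdps (6.1532), and aged ZT8 replicate 3 in Pygl (8.0966).

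For 3 genes the difference between ZT12 and ZT8 was not the same in the ages by the interaction test of limma, aged minus young on the log2 scale: Lcat (-1.22051), Slc1a2 (-0.974698) and Polg2 (-1.64007).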

How the results depend on the processing

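The count of 11 genes called in aged cells was 13 with the mean of probe sets, 10 with median centring (5 higher and 5 lower, against 4 and 7) and 11 with a change of at least 1.5 times. It was 5 without a filter on dim genes, 3 with the lower 50% left out, 19 with cyclic loess, 990 with array weights (460 higher, 530 lower), 5 with a trended robust variance, and 0 both with only the 8 arrays and with only the 24 aged arrays, where limma gave 1070 and 1300 genes at an unadjusted p under 0.05. A replicate block, although the numbers pair no mice, gave 17 (4 higher, 13 lower), with 11 of the 11 among them. Leaving 1 array out gave 0 to 55: 6, 0, 32 and 1 without aged ZT12 replicates 1 to 4, and 1, 0, 1 and 55 without aged ZT8 replicates 1 to 4. Both arrays that stood apart left out, an alternative chosen after the data were seen, gave 143 (80 higher, 63 lower).

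The young count of 7 was 2 with the lower 50% left out, 14 with array weights, 4 with only the 8 young arrays, and 2 to 6 with 1 array left out. It was 2 without young ZT12 replicate 1 or 4 or young ZT8 replicate 1 or 3, and 4 without replicate 2 of young ZT12 or 4 of young ZT8. The 3 differences between the ages became 29 with array weights, 0 with only the 16 arrays (763 at an unadjusted p under 0.05), 8 without both arrays, and 0 to 5 with 1 array left out (5 without aged ZT8 replicate 4). The replicate block changed neither count.

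Over 102 named genes and 1926 alternative values, 1710 kept their direction and side of the threshold, 106 lost the call, 93 gained it and 17 changed sign in 7 genes, all with adjusted p of 0.753 or more. Clock was 0.10 with the mean of probe sets, 0.0169 with array weights, 0.0671 without both arrays, and -0.0813 to 0.0378 with 1 array left out. Rora was 0.0551 with the mean of probe sets. Nr1d2 was 0.0378 with array weights, 0.0671 without both arrays and -0.136 to 0.0719 with 1 left out. Bhlhe40 was 0.0168, 0.0253 and -0.084 to 0.000651 under the same settings, and Csnk1e was 0.0504, 0.0209 and -0.0986 to 0.0151. With 1 array left out, Csnk1d was -0.137 to 0.0313 and Arntl2 was -0.271 to 0.0183. Of the 11 called genes, Slc1a2 passed in 14 of 18 alternatives, Ciart, Cgrrf1 and Lcat in 11 of 19, and Cd68 in 9 of 18. Mthfd1l passed in 8 of 18, Tlcd3a in 8 of 19, Hpca in 7 of 18, Car9 and Pygm in 6 of 18, and Thoc6 in 6 of 19. The cause was not tested. Of 44 list medians, 7 changed sign between the deposited scale, median centring and cyclic loess, none of them a list whose direction is given here. Signals near the dim limit carry no detection call, which limits what can be said of Hpca, Pygm, Cd68, Car9 and Slc1a2, fold changes included.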
